A study of Mus musculus with 16 samples.

Results

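Hspa8, Dnaja1, Hsph1, Hspa4 and Bag3 encode chaperones and cochaperones of the Hsp70 system of the cytosol, and were 5 of the 6288 genes in the table of normalized counts used here. They were found by matching the table's Ensembl gene identifiers to these symbols, and all 5 passed the filter on low values that left 6110 genes for testing. Bulk RNA was sequenced from CD45-positive cells of mouse marrow after enrichment of LSK cells (no lineage markers, Kit and Sca1 present), the fraction in which haematopoietic stem cells and multipotent progenitors reside. The groups were Tet2-deficient cells in physioxia, WT cells in physioxia, Tet2-deficient cells in air and WT cells in air, with 4 replicates each and 16 libraries in all. Tet2-deficient mice carried the Tet2-/- genotype, WT mice were C57Bl/6J, and both were 3 to 4 months old and of both sexes. All marrow was harvested at 3% oxygen, so the air groups had it too: enriched cells either remained in the chamber (physioxia) or were kept for 6 hours in ambient air, at about 21% oxygen, before RNA was taken. The labels call the replicates biological and matched, and do not say whether a replicate was 1 animal or a pool.

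Proteins of the Hsp70 family bind short hydrophobic stretches of unfolded polypeptides and release them in a cycle driven by ATP. J proteins deliver substrates and speed ATP hydrolysis, and nucleotide exchange factors then open the nucleotide pocket so that the substrate is let go. Hspa8 is the constitutive Hsp70 (Hsc70), Dnaja1 is a J protein, and Hsph1 (Hsp105) and Hspa4 (Apg-2) are Hsp110 proteins, large relatives of Hsp70 that act as exchange factors. Bag3 is an exchange factor of the BAG family that couples Hsp70 clients to selective autophagy. Many genes of this system are induced by heat shock factor 1 (HSF1), which binds repeated GAA and TTC units, and the folding and turnover of proteins is under tight control in haematopoietic stem cells.

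On GRCm38 with the GENCODE M21 annotation, Hspa8 (ENSMUSG00000015656) lies on the plus strand of chromosome 9 from 40800984 to 40810087, and Dnaja1 (ENSMUSG00000028410) on the plus strand of chromosome 4 from 40722150 to 40737149. Hsph1 (ENSMUSG00000029657) lies on the minus strand of chromosome 5 from 149614287 to 149636376, and Hspa4 (ENSMUSG00000020361) on the minus strand of chromosome 11 from 53259814 to 53300457. Bag3 (ENSMUSG00000030847) lies on the plus strand of chromosome 7 from 128523616 to 128546981. Exons of Hspa8 overlap the small nucleolar RNA genes Snord14c, Snord14d and Snord14e on the same strand, and exons of Dnaja1 overlap Smu1 and Gm6297 on the opposite strand and Mir207 on the same one. Whether reads were counted by strand, and how reads matching several places such as the processed pseudogene Dnaja1-ps were treated, is not given in the sources used here, so the counts of Hspa8 and Dnaja1 carry that uncertainty.

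Promoters of the members are shown because HSF1 units are the classical element of heat shock promoters. RefSeq windows on GRCm38.p6, from 250 bases before to 50 bases after a gene's start, were matched for 4 of the 5 members, with none for Hspa8. The window nearest the annotated gene start is given for each of the 4, 5′ to 3′ on the gene's strand. Capitals mark matches to GAANNTTC or TTCNNGAA (each its own reverse complement, so both strands are covered) and to the longer TTCNNGAANNTTC, whose reverse complement is GAANNTTCNNGAA.
Hsph1, chr5:149636287-149636586, minus strand: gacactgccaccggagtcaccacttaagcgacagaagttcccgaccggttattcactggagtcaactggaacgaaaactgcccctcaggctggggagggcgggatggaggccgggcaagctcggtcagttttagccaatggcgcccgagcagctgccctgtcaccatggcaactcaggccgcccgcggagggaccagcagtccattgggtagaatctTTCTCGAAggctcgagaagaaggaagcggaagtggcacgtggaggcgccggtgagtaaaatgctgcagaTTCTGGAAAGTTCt
Dnaja1, chr4:40722218-40722517, plus strand: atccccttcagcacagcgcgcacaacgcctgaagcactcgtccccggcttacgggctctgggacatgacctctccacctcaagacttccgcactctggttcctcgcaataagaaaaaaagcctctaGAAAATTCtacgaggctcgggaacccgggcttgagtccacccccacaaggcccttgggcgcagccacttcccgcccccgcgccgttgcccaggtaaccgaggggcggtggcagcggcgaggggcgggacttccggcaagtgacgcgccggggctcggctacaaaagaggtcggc
Bag3, chr7:128523333-128523632, plus strand: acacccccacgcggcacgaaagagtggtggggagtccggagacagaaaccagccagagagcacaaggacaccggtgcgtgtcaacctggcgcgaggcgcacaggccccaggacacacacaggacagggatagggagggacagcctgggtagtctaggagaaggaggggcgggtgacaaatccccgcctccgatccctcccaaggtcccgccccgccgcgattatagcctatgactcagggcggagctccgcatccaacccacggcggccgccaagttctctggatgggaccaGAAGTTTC
Hspa4, chr11:53300430-53300729, minus strand: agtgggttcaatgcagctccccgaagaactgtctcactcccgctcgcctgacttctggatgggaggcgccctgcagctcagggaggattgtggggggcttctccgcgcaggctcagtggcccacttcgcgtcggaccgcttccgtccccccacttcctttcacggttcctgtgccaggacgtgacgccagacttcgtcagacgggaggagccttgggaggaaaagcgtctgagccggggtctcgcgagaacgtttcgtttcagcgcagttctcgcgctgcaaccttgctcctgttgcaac

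The Hsph1 window held TTCTCGAA starting 33 bases upstream of the RefSeq start site and the 3-unit match TTCTGGAAAGTTC starting 36 bases downstream of it. That longer match contains TTCTGGAA and the overlapping GAAAGTTC. The Dnaja1 window held GAAAATTC 124 bases upstream, and the Bag3 window held GAAGTTTC 42 bases downstream. The RefSeq start sites of Hsph1 (149636336) and Dnaja1 (40722468) lie inside the GENCODE genes given above. The whole Dnaja1 window and the upstream match of Hsph1 therefore lie within those gene coordinates. Dnaja1 had 3 windows, of which only the one shown held a match, and Hsph1 had 2, both with the matches given. The Hspa4 window held none of these letters. Of all 32817 windows of this length, 15.1% held a 2-unit match in either order and 0.603% held a 3-unit match. A match of letters is a description of the window, not a binding site, and its bearing on the levels of these genes was not tested.

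Hspa8 was the most abundant member. Averaged over the 16 libraries it ranked 8 of the 6110 tested genes by normalized count, Hspa4 ranked 207, Dnaja1 230, Hsph1 405 and Bag3 2157. Per kilobase of the principal transcript, the level of Hspa8 in Tet2-deficient physioxia was 28759 normalized counts, against 1931 for Hspa4, 1272 for Dnaja1, 1199.8 for Hsph1 and 249 for Bag3 in the same group. In WT air it was 40103 for Hspa8, 1610 ± 330 for Hsph1, 1513 ± 111 for Dnaja1, 1356 ± 588 for Hspa4 (SD) and 526 for Bag3. By this length Hspa4 led the 4 less abundant genes in Tet2-deficient physioxia. In WT air it stood behind Hsph1 and Dnaja1, by less than its own SD. Per kilobase of all annotated exons merged, Hspa4 led them in WT air too, at 1132 against 986 for Dnaja1 and 843 for Hsph1. The order in WT air thus depends on the length used. Levels per kilobase of the principal transcript assume that all reads come from it.

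**Figure D1:**
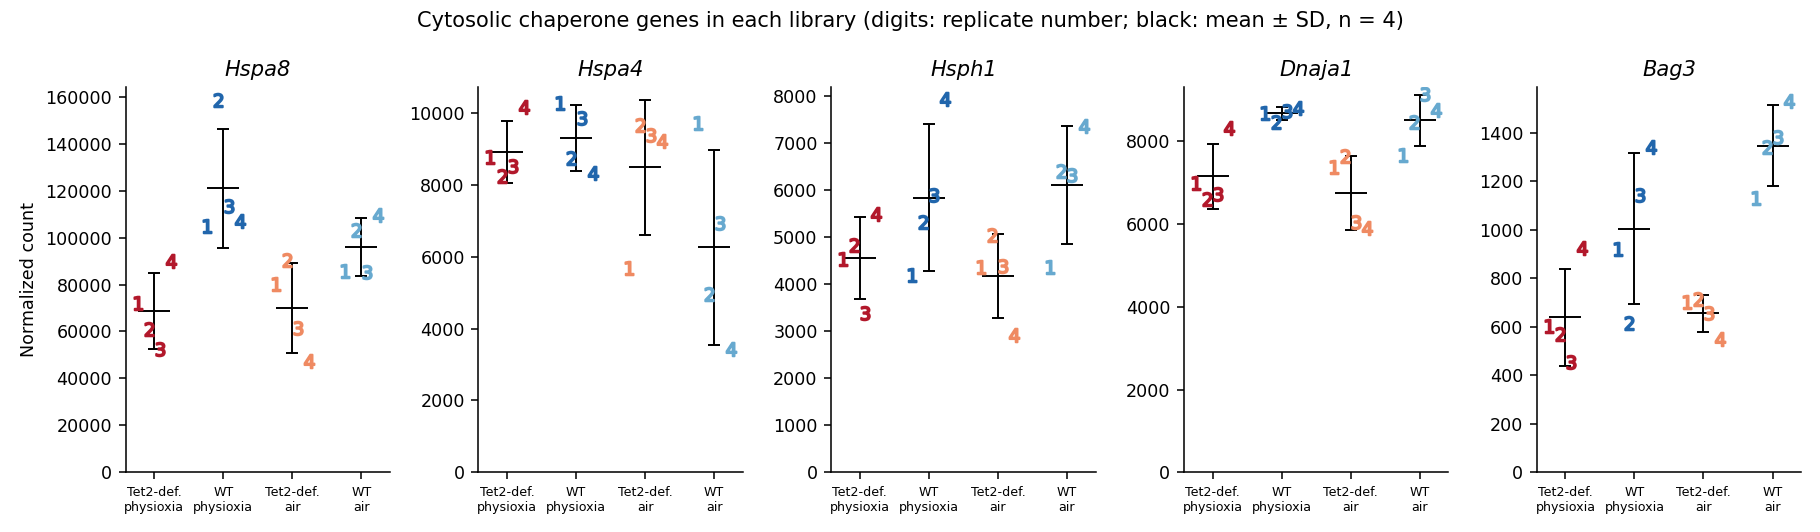
Normalized count of each member gene (y axis, from 0, a separate scale per gene) in the 16 libraries, by group on the x axis. Each digit is a library and gives its replicate number, and black lines are the mean ± SD (n = 4). Hspa8, Hsph1, Dnaja1 and Bag3 have lower means in both Tet2-deficient groups than in the WT group at the same oxygen, and the WT air values of Hspa4 spread from 3423 to 9717.

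Hspa8, the Hsp70 itself, was lower in Tet2-deficient cells at both oxygen levels. In physioxia its normalized counts in replicates 1 to 4 were 72137, 60875, 52541 and 89847 in Tet2-deficient cells, against 104750.3, 158462, 113589 and 106939.6 in WT cells (means 68850.0 ± 16138 and 120935 ± 25299, SD, n = 4 each). The genotypes did not overlap in physioxia, and replicate 2 stood alone at the top of the WT group. The fitted log2 difference, Tet2-deficient minus WT, was −0.82 ± 0.21 (SE, adjusted p = 0.00348, limma on log2 of the normalized count plus 1 over all 6110 genes, Benjamini-Hochberg; 95% interval −1.26 to −0.38), or 0.566 of the WT level. Without WT physioxia replicate 2 it was −0.68 (adjusted p = 0.0107). In air the counts were 80092, 90422, 61640 and 47277 in Tet2-deficient cells, against 85749, 103297, 85278 and 109698 in WT cells (means 69858 ± 19192 and 96005 ± 12395). Here the groups overlapped, since Tet2-deficient replicate 2 lay above WT replicates 1 and 3. The log2 difference in air was −0.49 ± 0.21 (adjusted p = 0.0404 in limma), and with edgeR's quasi-likelihood test on the recovered reads it missed the threshold (log2 difference −0.46, adjusted p = 0.0574). It also missed it without WT air replicate 2 (−0.46, adjusted p = 0.085) or 4 (−0.43, adjusted p = 0.0994) and without Tet2-deficient air replicate 3 (−0.45, adjusted p = 0.0888) or 4 (−0.32, adjusted p = 0.15). In these bulk samples, fewer cells of a type that expresses a gene and less of its RNA per cell cannot be told apart.

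Between oxygen levels Hspa8 differed by 0.32 ± 0.21 on the log2 scale in WT cells (physioxia minus air, adjusted p = 0.427 in limma, 95% interval −0.12 to 0.76), and without WT physioxia replicate 2 the difference was 0.18 (adjusted p = 0.81). After quantile normalization, which gives every library the same distribution of values, it was 0.051 (adjusted p = 0.907 in limma). The normalized counts of WT physioxia replicate 2 summed to 14.5 M, against 12.0 to 12.2 M in the rest of its group. Whether this total bears on its Hspa8 count was not tested. In Tet2-deficient cells the oxygen difference was −0.0065 ± 0.21 (95% interval −0.45 to 0.43). The order of the group means was WT physioxia, WT air, Tet2-deficient air and Tet2-deficient physioxia. Only the step between WT air and Tet2-deficient air was wider than the larger SD of its 2 groups.

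Dnaja1, the J protein that works with Hspa8, had the smallest difference of the 4 genes called in air and, in WT cells, the tightest replicates of the 5. In physioxia its counts were 6987, 6595, 6715 and 8317 in Tet2-deficient cells, against 8688, 8460.1, 8737 and 8816 in WT cells. The 4 WT libraries had a mean of 8675 with an SD of 153, and all Tet2-deficient libraries lay below them. The log2 SD of Dnaja1 in WT physioxia was 0.026, and 0.442% of tested genes had a smaller one. In air the counts were 7389, 7649.9, 6048 and 5903 in Tet2-deficient cells, against 7672, 8461, 9141 and 8746 in WT cells, again with no overlap, although the gap between the highest Tet2-deficient library and the lowest WT library was narrow. The log2 difference between genotypes was −0.28 ± 0.11 in physioxia (adjusted p = 0.0252 in limma) and −0.34 ± 0.11 in air (adjusted p = 0.0103). The physioxia call was lost without Tet2-deficient physioxia replicate 1 (adjusted p = 0.0526), 2 (0.0711) or 3 (0.065). After quantile normalization, which forces every library to the same distribution of values, neither passed (log2 difference −0.046 with adjusted p = 0.736 in physioxia, and −0.20 with adjusted p = 0.12 in air).

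Neither oxygen difference of Dnaja1 passed the threshold. The difference, physioxia minus air, was 0.031 ± 0.11 on the log2 scale in WT cells (adjusted p = 0.908 in limma, 95% interval −0.19 to 0.25) and 0.088 ± 0.11 in Tet2-deficient cells (95% interval −0.14 to 0.31). In the order of its means (WT physioxia, WT air, Tet2-deficient physioxia, Tet2-deficient air) the step between the genotypes was the one wider than the larger SD. The ratio of Hspa8 to Dnaja1 counts had a median of 9.78 in Tet2-deficient physioxia (range 7.82 to 10.8) and of 12.6 in WT physioxia (range 12.1 to 18.7), without overlap. In air the median ratio was 10.5 in Tet2-deficient cells (range 8.01 to 11.8) and 11.7 in WT cells (range 9.33 to 12.5), and these ranges overlapped.

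Among the exchange factors, Hsph1, an Hsp110 protein, was lower in Tet2-deficient cells in air, where its counts were 4374, 5047, 4386 and 2931, against 4378, 6419.8, 6329 and 7364 in WT cells. WT replicate 1 lay among the Tet2-deficient values, and the other 3 WT libraries lay above them all. The log2 difference was −0.55 ± 0.22 (adjusted p = 0.0295 in limma, 95% interval −1.01 to −0.10), with means of 4185 ± 893 in Tet2-deficient and 6122 ± 1254 in WT cells (SD, n = 4 each). It did not pass after quantile normalization (log2 difference −0.44, adjusted p = 0.0817), without WT air replicate 2 (adjusted p = 0.0618), 3 (0.0587) or 4 (0.085), or without Tet2-deficient air replicate 4 (0.105). In physioxia the counts were 4531, 4833, 3391 and 5492 in Tet2-deficient cells, against 4200.2, 5334, 5896 and 7943 in WT cells, and the groups overlapped broadly. The difference there was −0.34 ± 0.22 (adjusted p = 0.166 in limma, 95% interval −0.80 to 0.12), and it was −0.18 without WT physioxia replicate 4 (adjusted p = 0.463) and −0.21 without Tet2-deficient physioxia replicate 3 (adjusted p = 0.428). Oxygen gave differences of −0.080 ± 0.22 in WT cells and 0.13 ± 0.22 in Tet2-deficient cells, neither past the threshold. No neighbours in the order of the Hsph1 means (WT air, WT physioxia, Tet2-deficient physioxia, Tet2-deficient air) differed by more than the larger SD of the 2 groups.

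Hspa4, the other Hsp110 protein, was the one member whose mean was not lower in Tet2-deficient cells in air. There its counts were 5684, 9667, 9386 and 9214 in Tet2-deficient cells, against 9717, 4975, 6927 and 3423 in WT cells (means 8488 ± 1879 and 6260.3 ± 2714). Among the Tet2-deficient libraries replicate 1 lay apart from the other 3, at the low end. The WT libraries were spread out without 1 standing apart, with replicate 1 the highest, and the groups overlapped through the 2 replicates numbered 1. The log2 difference was 0.51 ± 0.24 (adjusted p = 0.0623 in limma, 95% interval −0.0034 to 1.03). It passed without WT air replicate 1 (0.76, adjusted p = 0.00829), without Tet2-deficient air replicate 1 (0.70, adjusted p = 0.0194) and after quantile normalization (0.63, adjusted p = 0.0297), whereas without WT air replicate 4 it was 0.26 (adjusted p = 0.254). In physioxia the counts were close, 8762, 8231, 8513 and 10164 in Tet2-deficient cells, against 10269, 8745, 9847 and 8327 in WT cells. The difference there was −0.060 ± 0.24 (adjusted p = 0.834, 95% interval −0.58 to 0.46), and after quantile normalization it had the opposite sign (0.19, adjusted p = 0.498).

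Hspa4 also had the largest oxygen difference of the 5 genes. In WT cells physioxia minus air was 0.67 ± 0.24 on the log2 scale (unadjusted p = 0.0141, adjusted p = 0.13 in limma, 95% interval 0.15 to 1.19), which does not pass the threshold over all genes. It passed without WT air replicate 1 (0.92, adjusted p = 0.0374), and without WT air replicate 4 it was 0.42 (adjusted p = 0.348). WT libraries of the same number deviated together from their group means, so numbers were taken to pair the WT libraries. The physioxia library was the higher in 4 of 4 such pairs, by 1.06, 1.76, 1.42 and 2.43 times in replicates 1 to 4. The same ratios went both ways for Hspa8 (1.22, 1.53, 1.33 and 0.975), Hsph1 (0.959, 0.831, 0.932 and 1.08) and Dnaja1 (1.13, 0.9998, 0.956 and 1.01). The share of all tested genes with 1 direction in all pairs was not computed, and the pairing itself is not settled. For Hspa4, the adjusted p in limma with the pair as a block was 0.0613. The order of the replicates was the same at both oxygen levels, with replicate 1 highest, then 3, 2 and 4, over a range of 8327 to 10269 in physioxia and of 3423 to 9717 in air. The log2 SD of Hspa4 in WT air was 0.64, larger than that of 87.2% of tested genes. In WT physioxia it was 0.14, larger than that of 12.9%. In Tet2-deficient cells the oxygen difference of Hspa4 was 0.10 ± 0.24 (95% interval −0.42 to 0.61). The Hspa4 means ran in the order WT physioxia, Tet2-deficient physioxia, Tet2-deficient air and WT air, and no step between neighbours was wider than the larger SD.

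Bag3, the BAG-family exchange factor, showed the largest genotype difference of the 5 genes in air. There its counts were 702, 716, 656 and 549 in Tet2-deficient cells, against 1130.5, 1342, 1382 and 1534 in WT cells, so every Tet2-deficient library was below every WT library. The means were 656 ± 76.0 and 1347 ± 166 (SD, n = 4 each), and the log2 difference was −1.04 ± 0.23 (adjusted p = 0.00132 in limma, 95% interval −1.52 to −0.56), or 0.487 of the WT level. In physioxia the counts were 602, 571, 457 and 925 in Tet2-deficient cells, against 920.3, 616, 1144 and 1340.1 in WT cells. Tet2-deficient replicate 4 lay above WT replicates 1 and 2, and the other 3 lay below all WT libraries. The log2 difference in physioxia was −0.64 ± 0.23 (adjusted p = 0.0193 in limma), and it missed the threshold with only the 2 physioxia groups in the fit (adjusted p = 0.053), without WT physioxia replicate 3 (0.0569) or 4 (0.0702), and without Tet2-deficient physioxia replicate 3 (0.0711). The air difference of Bag3 passed without any one library, with an adjusted p of at most 0.00508.

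In WT cells Bag3 averaged 1005 ± 311 in physioxia and 1347 ± 166 in air, and it was lower in physioxia in 4 of 4 pairs, at 0.814, 0.459, 0.828 and 0.874 of the air level. The log2 difference, −0.47 ± 0.23, did not pass (adjusted p = 0.266 in limma, 95% interval −0.95 to 0.0071), and without WT physioxia replicate 2 it was −0.26 (adjusted p = 0.658). In Tet2-deficient cells it was −0.078 ± 0.23 (95% interval −0.56 to 0.40). The order of the Bag3 means was WT air, WT physioxia, Tet2-deficient air and Tet2-deficient physioxia. The steps between the first 3 groups were wider than the larger SD of each pair, and the last 2 groups differed by less.

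**Figure D2:**
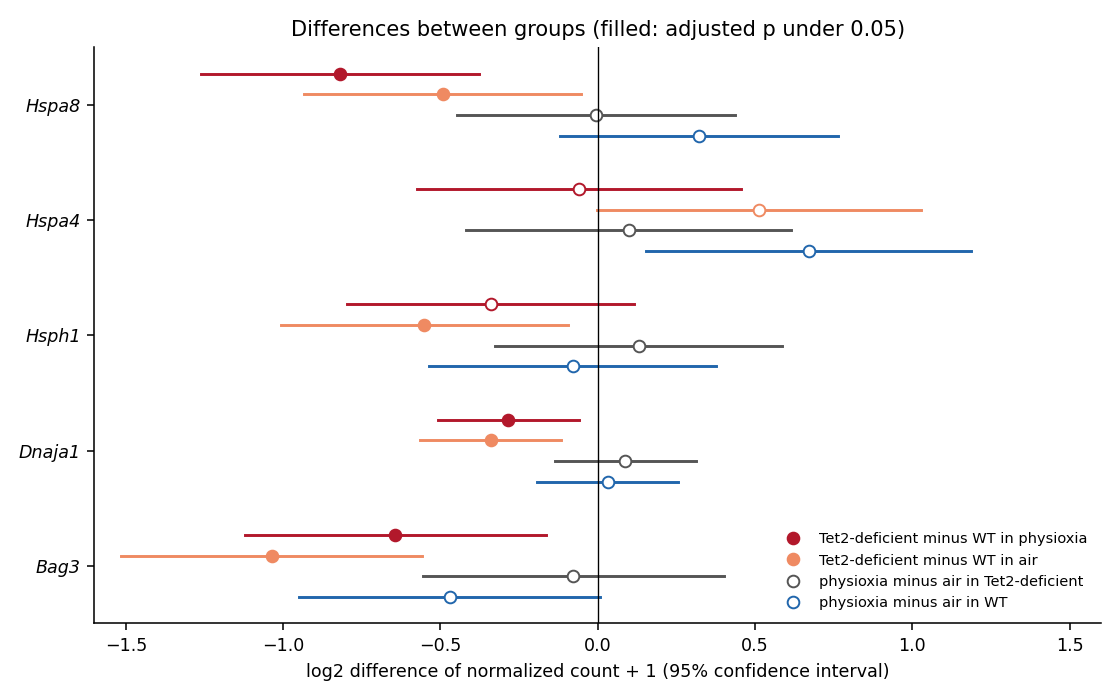
Log2 differences of each member gene (x axis, normalized count plus 1) with 95% confidence intervals from limma. Colours are the 4 comparisons listed in the legend, and filled points have an adjusted p under 0.05. The filled points are Tet2-deficient minus WT for Hspa8, Dnaja1 and Bag3 in both conditions and for Hsph1 in air, all on the lower side, and the widest departure of an oxygen difference is that of Hspa4 in WT cells, at 0.67.

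Of the 5 members, 3 were lower in Tet2-deficient than in WT cells in physioxia (Hspa8, Dnaja1 and Bag3), where 33.6% of all tested genes were called lower and 69.4% were called in either direction. In air 4 were lower (those 3 and Hsph1), where 37.4% of tested genes were called lower and 79.5% in either direction. The 3 genes lower at both oxygen levels compare with 27.5% of tested genes. Groups did not overlap for Dnaja1 and Hspa8 in physioxia, against 28% of tested genes that were lower without overlap, and for Dnaja1 and Bag3 in air, against 35.5%. The table was rich in genes with a difference: DESeq2 gave 98.2% of tested genes an unadjusted p under 0.05 for some pair of groups, and it is not the whole transcriptome. Counting every annotated gene outside the table as unchanged, which was tried once the values were known, left 1 member called in physioxia (Hspa8) and 1 in air (Bag3). The median log2 difference between genotypes over all tested genes was 0.060 in physioxia and 0.24 in air, and quantile normalization brought the air value to 0.12, so relative to the middle gene the members called in air lay lower than their own values.

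No member was called between oxygen levels in WT cells, where 5.76% of tested genes were called. In Tet2-deficient cells and for the difference between the oxygen effects of the genotypes (interaction), limma called no member and 0% of all genes. At an unadjusted p under 0.05 there were 280 and 546 genes in these tests, edgeR called 0 in each, and DESeq2 called 9 and 10 genes. The interaction was −0.33 ± 0.29 for Hspa8 (adjusted p = 0.718), −0.57 ± 0.34 for Hspa4 (adjusted p = 0.602) and 0.39 ± 0.32 for Bag3 (adjusted p = 0.692), all in limma on the log2 scale. Its 95% interval was −1.30 to 0.16 for Hspa4 and −0.28 to 1.07 for Bag3, so oxygen effects that differ by up to about these sizes are within the error. Leaving out 1 library at a time gave interactions of −0.50 to −0.19 for Hspa8, −0.82 to −0.32 for Hspa4 and 0.18 to 0.55 for Bag3. Averaged over genotypes, physioxia minus air called no member, against 3.93% of tested genes, and was 0.38 ± 0.17 for Hspa4 (adjusted p = 0.322).

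Across the 16 libraries Hspa8, Dnaja1, Hsph1 and Bag3 varied together and Hspa4 did not. As a description over libraries that share 4 groups, Pearson's r of the log2 values was 0.86 for Hspa8 and Dnaja1, 0.80 for Hsph1 and Bag3, 0.79 for Dnaja1 and Bag3, 0.78 for Hsph1 and Dnaja1, 0.71 for Hspa8 and Hsph1 and 0.59 for Hspa8 and Bag3. After subtracting each group's mean these values were 0.70, 0.72, 0.63, 0.61, 0.58 and 0.27, the lowest being that of Hspa8 and Bag3. For Hspa4 the corresponding values were −0.46 with Hsph1, −0.45 with Bag3, −0.27 with Dnaja1 and −0.19 with Hspa8, and −0.43, −0.15, −0.22 and −0.28 within groups.

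The ratio of the 2 Hsp110 genes varied widely among libraries. That of Hspa4 to Hsph1 had a median of 1.89 in Tet2-deficient physioxia (range 1.70 to 2.51), 1.65 in WT physioxia (range 1.05 to 2.44), 2.03 in Tet2-deficient air (range 1.30 to 3.14) and 0.935 in WT air (range 0.465 to 2.22). All ranges overlapped, and Hsph1 counts exceeded those of Hspa4 in 2 libraries, WT air replicates 2 and 4. The ratio of Hspa8 to Bag3 had a median of 104 in Tet2-deficient air (range 86.2 to 126) and of 73.7 in WT air (range 61.7 to 77.0), without overlap. In physioxia the median ratio was 111 in Tet2-deficient cells (range 97.1 to 119.7) and 107 in WT cells (range 79.8 to 257), where replicate 2 had both the highest Hspa8 and the lowest Bag3 count of its group.

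**Figure D3:**
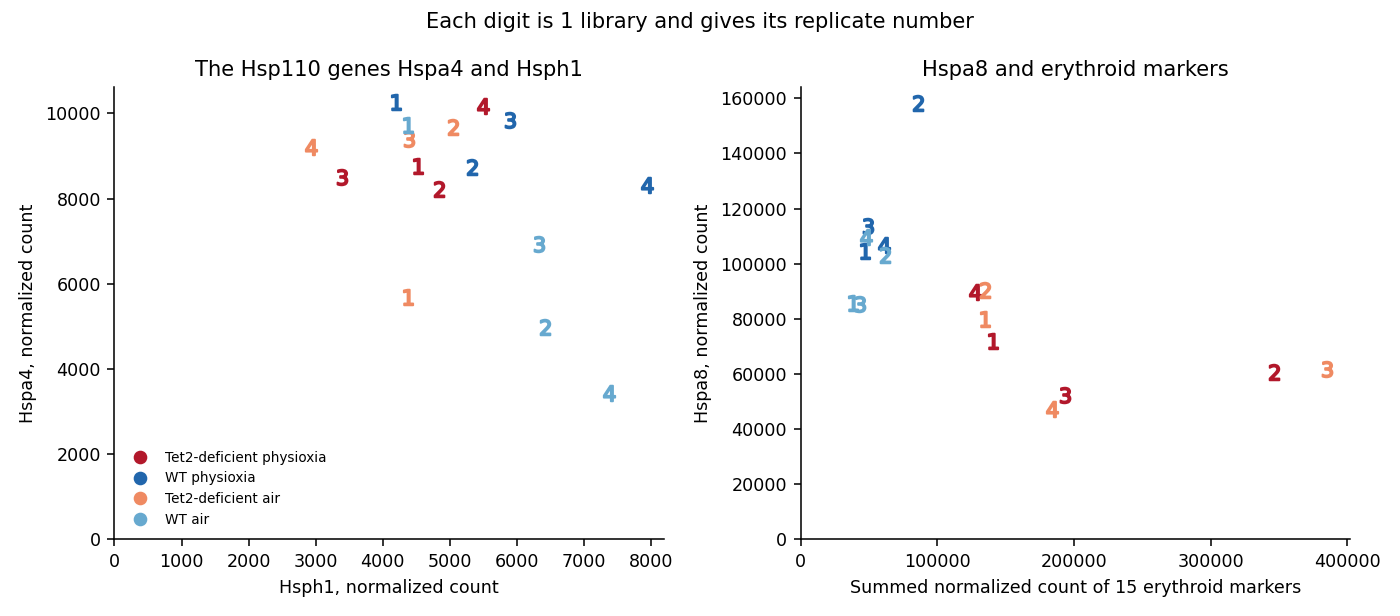
Left, normalized counts of Hspa4 (y axis) against Hsph1 (x axis); right, those of Hspa8 (y axis) against the summed normalized count of 15 erythroid marker genes (x axis). Each digit is a library and gives its replicate number, colours are the 4 groups, and all axes start at 0. The 2 libraries in which Hsph1 exceeds Hspa4 are replicates 2 and 4 of WT air, and all Tet2-deficient libraries lie at or above an erythroid sum of 127981, to the right of all WT libraries.

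Marker genes of several cell types differed between the genotypes as well. All 16 libraries held LSK markers, 5 of 11 of which were measured, among them Kit and Procr, and none of these was at 0. Their summed normalized count was 11774 to 17624 in Tet2-deficient physioxia, 4856 to 8679.96 in WT physioxia, 11495 to 17929.9 in Tet2-deficient air and 7143 to 9056 in WT air. The sum of 15 of 16 erythroid markers was 127981 to 346301 in Tet2-deficient physioxia, 46762 to 85925 in WT physioxia, 135212 to 384994 in Tet2-deficient air and 38593 to 61999 in WT air. Car2 reached the highest counts of these, from 19916 to 146674 over the 16 libraries, and no other erythroid marker exceeded 37329. Sums of 9 of 14 neutrophil markers were 175037 to 239678 in Tet2-deficient physioxia, 241689 to 382659.97 in WT physioxia, 159481 to 220031 in Tet2-deficient air and 272900.3 to 304525 in WT air. These sums are mostly Elane, a granule protease gene also expressed in myeloid progenitors, which ran from 158688 to 373689 over the 16 libraries, and no other neutrophil marker exceeded 5727. Of the basophil and mast cell markers, Prss34 ran from 3340 to 65695 over the 16 libraries and no other exceeded 19988. Sums of these markers (7 of 9) ran from 20075 to 26740.1 in Tet2-deficient physioxia, 65664 to 104913 in WT physioxia, 17947 to 27969 in Tet2-deficient air and 60153 to 101003 in WT air. Monocyte (7 of 13), megakaryocyte (6 of 8) and T and NK cell (12 of 13) sums were likewise lower in every Tet2-deficient library than in every WT library at the same oxygen. The T and NK cell sum is mostly Nkg7, which ran from 17214 to 40618, while Ccl5 reached at most 3744 and Cd3e at most 153. Of the B cell and stromal lists, 1 of 10 and 1 of 9 markers were measured. Trac, at 0 in 1 library, was the one measured marker of these lists with a 0. The part of cell composition in the genotype differences of the members was not tested.

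Within the Tet2-deficient groups, Hspa8, Dnaja1 and Bag3 were low in the libraries with high erythroid sums. The 2 libraries with the highest sums were replicates 2 and 3 in physioxia and replicates 3 and 4 in air, and in each group they held the 2 lowest counts of Hspa8, of Dnaja1 and of Bag3. They also had the lowest LSK sums of their groups, 11774 and 12792 in physioxia and 11495 and 13018 in air. For Hsph1 the lowest count was in 1 library of each pair (3391 in replicate 3 in physioxia and 2931 in replicate 4 in air), while the other held the second highest of its group (4833 in replicate 2 in physioxia and 4386 in replicate 3 in air). Hspa4 was lowest in replicates 2 and 3 in physioxia (8231 and 8513), but in air its lowest count, 5684, was in replicate 1, and replicates 3 and 4 held 9386 and 9214. In WT cells Hspa8 ran the other way. WT physioxia replicate 2 had the highest erythroid sum (85925) and Hspa8 count (158462) of its group, with the lowest Dnaja1 (8460) and Bag3 (616). In WT air replicates 2 and 4 had the highest sums (61999 and 48107) and Hspa8 counts (103297 and 109698). There Dnaja1 and Bag3 were lowest in replicate 1, with the lowest sum (38593). Without replicates 2 and 3 of Tet2-deficient physioxia, left out after the values were seen, no member was called in physioxia, with log2 differences of −0.57 for Hspa8 (adjusted p = 0.0673), −0.19 for Dnaja1 (adjusted p = 0.236) and −0.37 for Bag3 (adjusted p = 0.245). Without replicates 3 and 4 of Tet2-deficient air, Bag3 alone was called in air, and the differences were −0.16 for Hspa8 (adjusted p = 0.492), −0.36 for Hsph1 (adjusted p = 0.212) and −0.17 for Dnaja1 (adjusted p = 0.195), all in limma. Both fits left out the lowest Tet2-deficient counts of Hspa8, Dnaja1 and Bag3, so their smaller differences followed from the choice of libraries. The fits also rest on fewer libraries and are no test of cell composition.

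Tet2, which encodes a dioxygenase that oxidises 5-methylcytosine, was lower in the Tet2-deficient libraries and still detected in all of them. It averaged 482 ± 35.9 normalized counts in Tet2-deficient physioxia, 731 ± 97.4 in WT physioxia, 554 ± 54.1 in Tet2-deficient air and 855 ± 157 in WT air (SD, n = 4 each). Reads counted in the table came to between 7.77 and 15.7 M in each library.

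The rest of the chaperone network was read from lists of 117 other genes, 33 of which were in the table and tested. In physioxia 12 of the 33 were higher and 12 lower in Tet2-deficient than in WT cells, with a median log2 difference of −0.14, against 0.060 over all tested genes, of which 35.9% were called higher. In air 12 were higher and 15 lower, with a median of −0.25, against 0.24, where 42.1% of all tested genes were called higher. Of the 4 Hsp70 and Hsp110 genes, 2 were higher and 2 lower in both conditions. Hspa4l, another Hsp110 gene, was higher by 0.50 ± 0.14 in physioxia (adjusted p = 0.00574) and 0.38 ± 0.14 in air (adjusted p = 0.0212). Hspa12b, a distant Hsp70 relative, was higher by 1.44 ± 0.24 and 1.00 ± 0.24. Hspa2, an Hsp70 best known from testis, fell by −0.45 ± 0.15 in physioxia and −0.59 ± 0.15 in air, and Hspa13, an Hsp70 of the endoplasmic reticulum, fell by −0.42 ± 0.12 and −0.46 ± 0.12 on the same scale.

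Of 14 J proteins tested, 6 were higher and 3 lower in physioxia, and 5 higher and 6 lower in air. Dnajb5 fell, by a log2 difference of −2.19 ± 0.29 in physioxia and −2.20 ± 0.29 in air, and Dnajb6, a J protein that suppresses aggregation of polyglutamine proteins, by −0.52 ± 0.10 and −0.43 ± 0.10. Dnaja3, the mitochondrial relative of Dnaja1, was higher by 0.52 ± 0.10 and 0.47 ± 0.10, and Dnajc14 by 0.54 ± 0.11 and 0.36 ± 0.11. Of the 3 other exchange factors and Hsp70 cochaperones, Bag2 was higher by 0.43 ± 0.12 in physioxia and 0.49 ± 0.12 in air, opposite to Bag3. Bag5 fell in air, by 0.25 ± 0.10 (adjusted p = 0.0321 in limma), and its difference in physioxia was −0.17 ± 0.10 (adjusted p = 0.142). Bag1 did not pass in either, with −0.40 ± 0.57 in physioxia and 1.13 ± 0.57 in air.

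Of 12 listed small heat shock proteins and partners, the 2 tested were lower in Tet2-deficient cells in both conditions, as was Bag3. Among all tested genes 27.5% were lower in both. Cryab, the small heat shock protein alpha-B crystallin, had low counts, at 26.4 ± 18.7 in Tet2-deficient and 77.9 ± 24.2 in WT physioxia (mean ± SD). In air they were 19.9 ± 10.6 and 55.8 ± 15.6. Cryab fell, by −1.67 ± 0.41 on the log2 scale in physioxia (adjusted p = 0.00299 in limma) and −1.52 ± 0.41 in air (adjusted p = 0.00528). Sqstm1, the autophagy receptor p62, fell by −0.93 ± 0.15 and −0.79 ± 0.15. Of 5 Hsp90 cochaperones, 3 were lower and 2 higher in both conditions: Chordc1 by −0.54 ± 0.11 in physioxia and −0.40 ± 0.11 in air, Unc45a by −0.42 ± 0.11 and −0.50 ± 0.11, Cdc37, which loads kinases onto Hsp90, by −0.36 ± 0.084 and −0.25 ± 0.084, and Ttc4 by 0.38 ± 0.12 and 0.51 ± 0.12. Of 3 heat shock factors and regulators, Hsbp1, which binds HSF1, fell by −0.39 ± 0.13 and −0.34 ± 0.13, Atxn3 was higher by 0.47 ± 0.10 and 0.35 ± 0.10, and Hsf2 did not pass, at 0.29 ± 0.26 in physioxia and −0.34 ± 0.26 in air. Of 2 chaperonin and prefoldin subunits, Pfdn5 fell in physioxia by 0.69 ± 0.21 and differed by −0.31 ± 0.21 in air, and Cct4 was higher in air by 0.43 ± 0.13 and differed by 0.30 ± 0.13 in physioxia (adjusted p = 0.0551). Between oxygen levels in WT cells 1 of the 33 was higher in physioxia (Bag1, 2.01 ± 0.57, adjusted p = 0.047 in limma) and 1 lower (Dnajb12, −0.75 ± 0.17, adjusted p = 0.0168), both named after their values were seen. The Bag1 libraries were widely spread, at 3029 ± 2740 in WT physioxia against 566 ± 88.8 in WT air (mean ± SD). In Tet2-deficient cells and in the interaction limma called none of the 33.

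**Figure D4:**
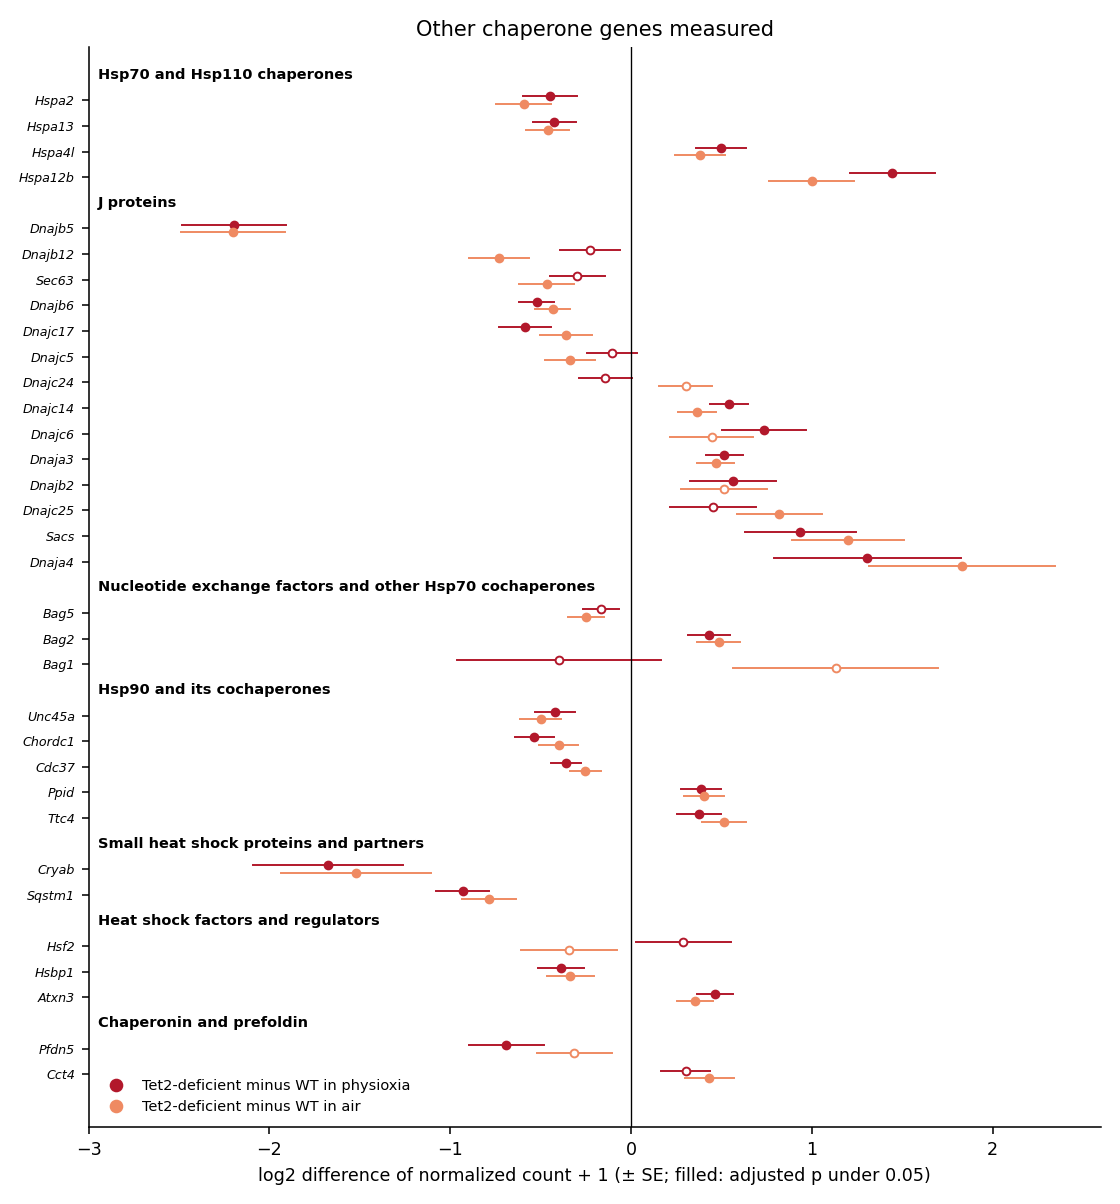
Log2 differences between Tet2-deficient and WT cells (x axis, normalized count plus 1; bars are ± SE of the limma fit) for the 33 other chaperone genes tested, by list. Dark red is physioxia, orange is air, and filled points have an adjusted p under 0.05. Points lie on both sides of 0 in each list with more than 2 genes, and Dnajb5, at −2.19 in physioxia and −2.20 in air, lies farthest from 0.

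The genes most like the 5 members over the 16 libraries were sought among 4687 genes by Pearson's r with the mean of the members' standardized log2 values, a description that genotype, oxygen and library all enter. They were F2rl2 (a protease-activated receptor, 0.94), Rhof (0.93), Rilpl1, Gnl1 and Zfand2a (0.92 each). The members' own r with that mean was 0.94 for Dnaja1, 0.88 for Hspa8, 0.84 for Hsph1, 0.81 for Bag3 and −0.11 for Hspa4, so it describes the first 4. For single members, Hspa8 was most like Hmces (0.946) and H3f3b (0.945), Dnaja1 like Map4k1 (0.941) and Ccdc130 (0.935), and Hsph1 like Tollip (0.89) and Mad1l1 (0.87). Hspa4 was most like Tent2 (0.98) and Rab6a (0.97).

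Tent2, which encodes a poly(A) polymerase, averaged 1962 in Tet2-deficient physioxia, 2026 in WT physioxia, 1814 in Tet2-deficient air and 1352 in WT air, and its genotype difference in air of 0.48 ± 0.23 did not pass (adjusted p = 0.0676), as that of Hspa4 did not.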

How the data were processed

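The deposited table, named by the authors as DESeq2-normalized counts, is a signal, in which a library's gene counts are scaled by its size factor. The submitters' processing notes name STAR, HTSeq, cutadapt, FastQC and DESeq2 and the build GRCm38, and versions and roles are not given in the sources used here. Divided by the value of a single read, 100% of the values came out whole within 0.01, so reads were recovered for edgeR 4.0.16 and DESeq2 1.42.0 as alternatives. How the 6288 genes were chosen is not stated. The main test was limma 3.58.1 (in R 4.3.3, mean-variance trend) on log2 of the normalized count plus 1, which understates changes of low genes, for genes with at least 10 in at least 4 libraries (6110 tested, 178 left out), with the 4 group means of all 16 libraries fitted jointly, two-sided, Benjamini-Hochberg adjusted p under 0.05. It was tested on simulated data. Levels carry the SD of the replicates and log2 differences the SE of the fit.

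The members and lists were chosen with earlier results of these data known. The genes named are the 5 members, up to 4 genes of each chaperone list by smallest p in a genotype comparison, and the genes most alike in r (5 for the mean, 2 per member; mean normalized count at least 50). Some of the genes most alike in r are not reported here. The labels call the replicates matched. Deviations from the group mean correlated between same-numbered air and physioxia libraries by 0.33, 0.18, 0.16 and 0.33 in WT, where numbers were taken to pair. In Tet2-deficient cells they correlated by 0.32, −0.27, 0.04 and −0.01, where a match by number was not seen. Such correlations cannot settle which libraries are matched. Alternatives were other scalings, pseudocounts, filters, tools, fewer groups, a replicate block, and leaving out libraries.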

Additional observations from a re-analysis of the deposited data

Results flagged for a closer look

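Among the 20 sets of 4 libraries (5 genes in 4 groups), 2 had a library that lay far from the other 3 by Dixon's ratio, the gap to the nearest library over the whole range, above its critical value at the 95% level. Chance flags about 1 in 20 such sets. Hspa8 in WT physioxia had its highest library at 158462 (ratio 0.835). Hspa4 in Tet2-deficient air had its lowest library at 5684 (ratio 0.886).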

How the results depend on the processing

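Reads in the table (7.77 to 15.7 M per library) leave the spread between 4 replicates, not counting error, as the main limit for genes at these counts. With the replicate number as a block, 3 members were called between genotypes in physioxia, 4 in air and 0 in each oxygen comparison, as without it, and 462 genes in place of 352 between oxygen levels in WT cells. For the oxygen comparisons that block paired same-numbered libraries in Tet2-deficient cells too. Across genotypes the deviations of same-numbered libraries correlated by at most 0.12.

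The causes of the shifts below were not tested, apart from fewer samples where libraries were left out. Without Tet2-deficient air replicates 3 and 4, 1 member and 2760 genes were called between genotypes in air, 152 genes between oxygen levels in Tet2-deficient cells and 441 averaged over genotypes. Added after seeing the data, leaving out Tet2-deficient physioxia replicates 2 and 3 gave 0 members between genotypes in physioxia, 1 gene between oxygen levels in Tet2-deficient cells and 50 averaged. Leaving out WT air replicates 1 and 2 gave 0 genes between oxygen levels in WT cells and 9 averaged, and leaving out WT physioxia replicates 1 and 2 gave 0 and 38. Among the members, the first of these ended the call of Hspa8 in air (adjusted p = 0.109) and brought Hspa4 past the threshold (0.77, adjusted p = 0.0225), and the other ended that of Dnaja1 in physioxia (adjusted p = 0.0552) and brought Hsph1 past it (−0.61, adjusted p = 0.0458). With annotated genes outside the table counted as unchanged, also added later, 1 member and 2479 genes were called between genotypes in physioxia, 1 member and 2436 genes in air, 0 genes between oxygen levels in WT cells and 6 averaged. DESeq2 called 529 genes between oxygen levels in WT cells, 9 in Tet2-deficient cells and 10 in the interaction, and a pseudocount of 8 gave 1 in Tet2-deficient cells.

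Signs turned only for differences that had not passed, in 38 cases, and the values they then took follow. Quantile normalization gave 0.19 for Hspa4 between genotypes in physioxia, −0.082 for Dnaja1 between oxygen levels in WT cells and, averaged over genotypes, −0.0093 for Hspa8, −0.0054 for Hsph1 and −0.0039 for Dnaja1. TMM gave −0.018 for Dnaja1 in WT cells and −0.021 for Hsph1 averaged, and edgeR gave −0.019 and −0.017. Without Tet2-deficient air replicates 3 and 4, the oxygen difference in Tet2-deficient cells was −0.064 for Hsph1 and −0.078 for Dnaja1, the interaction −0.11 for Dnaja1, and the average −0.0070 for Hspa8, −0.072 for Hsph1 and −0.023 for Dnaja1. Without Tet2-deficient physioxia replicates 2 and 3 the difference was 0.027 for Hspa4 between genotypes in physioxia, and 0.25 for Hspa8 and 0.19 for Bag3 between oxygen levels in Tet2-deficient cells. Without WT air replicates 1 and 2 the oxygen difference was −0.044 for Dnaja1 in WT cells and −0.066 for Hsph1 averaged. Without WT physioxia replicates 1 and 2 it was 0.19 for Hsph1 in WT cells and −0.055 in the interaction.

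Leaving out each library in turn, members called ran from 1 to 3 between genotypes in physioxia, 2 to 5 in air and 0 to 1 between oxygen levels in WT cells. Genes called ran from 3842 to 4306, 4050 to 5274 and 128 to 554 in these comparisons, 0 to 1 in Tet2-deficient cells and in the interaction, and 139 to 359 averaged over genotypes. Oxygen differences in WT cells ran from −0.24 to 0.066 for Hsph1 and −0.017 to 0.067 for Dnaja1. In Tet2-deficient cells they ran from −0.18 to 0.13 for Hspa8, −0.084 to 0.17 for Hspa4, −0.031 to 0.27 for Hsph1 and −0.27 to 0.067 for Bag3. The interaction of Dnaja1 ran from −0.018 to 0.12 and the average for Hsph1 from −0.056 to 0.098.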
